A study of Rattus norvegicus with 12 samples.

Results

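The antioxidant and Nrf2 target genes examined here are Nfe2l2, Nqo1, Gclc, Gclm, Gpx1, Gpx3, Cat, Sod1, Sod2 and Txnrd1. They were chosen by name, with no measured value in the rule, and are 10 of the 16511 genes in the table of gene counts. The glands came from Rattus norvegicus offspring at PND21 whose dams received a high fat butter (HFB) diet or the control AIN diet (CTL) during pregnancy. Each diet was represented by 6 libraries of RNA from snap-frozen mammary glands, and every gland came from a different litter. The labels name the gland and no dissection, whereas the study's methods describe epithelium taken by laser capture for a different pair of groups, so the labels were followed and the tissue was not settled further. For the groups they describe, the study's methods place the return to the control diet at birth, whereas the design text deposited with these libraries gives both that and a later end, so the end of the exposure was not settled either. The comparison asks whether the maternal HFB diet was followed by other transcript levels in the prepubertal gland. An undissected gland holds fat, epithelium, vessels, connective tissue, blood and, in places, lymph node and adjoining muscle. Libraries are named by diet and library number, which are 1 to 6 for HFB and 7 to 11 and 14 for CTL.

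Nrf2, encoded by Nfe2l2, is a transcription factor that is held at a low level in resting cells because Keap1 presents it to a Cul3 ubiquitin ligase for degradation. Electrophiles and oxidants modify Keap1, Nrf2 then accumulates, pairs with a small Maf protein and binds antioxidant response elements near genes for detoxification, glutathione synthesis and NADPH supply. Its activity is set largely at the protein level, so the Nfe2l2 transcript is not a measure of it. Superoxide dismutases turn superoxide into hydrogen peroxide, and catalase, glutathione peroxidases and the thioredoxin system remove peroxide. In the mammary gland these enzymes are made by epithelium and by the surrounding fat.

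RefSeq promoter windows in the GRCr8 assembly, which run from 250 bases before to 50 bases after a start site, were matched for all 10 genes and gave 11 windows. The core letters of the antioxidant response element, TGACNNNGC, were searched on both strands and were found in 4 of the 11 windows, against 12.1% of all 33469 windows. The matched stretches are shown as the places where the windows of the named genes hold these letters. No match was found for the other 6 genes, Cat among them. Each stretch is written 5′ to 3′ on the gene's strand with the matched letters in capitals, and for Sod2, Gclm and Txnrd1 the capitals are the motif's reverse complement.
Nfe2l2 (chr3:81028950-81028971, minus strand): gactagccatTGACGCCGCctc
Gclm (chr2:213031953-213031981, plus strand): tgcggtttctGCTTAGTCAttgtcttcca
Sod2 (chr1:50050185-50050213, minus strand): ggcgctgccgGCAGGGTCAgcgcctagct
Txnrd1 (chr7:22755964-22755992, minus strand): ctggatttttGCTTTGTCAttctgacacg
A match describes the letters only, and binding was not measured. The match in Txnrd1 was in 1 of its windows.

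Total counts lay between 2320267 and 2944680 per library, with medians of 2660268 for HFB and 2537563.5 for CTL. A limit of detection of 3 counts corresponds to 1.02 to 1.29 CPM (counts scaled to a common library total) in these libraries. Levels below are CPM after TMM normalization, a scaling that adjusts for differences in library composition. Because the counts were not divided by transcript length, levels are compared between libraries, and a marker called the most abundant of its list is so by CPM alone.

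HFB 6 and CTL 14 stood apart from the other libraries of their diets. Their summed CPM over the adipocyte markers was 19896 and 16441, whereas the other libraries lay between 35291 and 44903. This list has 9 of its 10 genes in the table, all with counts, and Fabp4 is the most abundant. Over the 10 lymphoid markers in the table, of which Lck is the most abundant, HFB 6 and CTL 14 had 1133 and 1174 summed CPM, and the other libraries had between 8.52 and 322. The endothelial markers, led by Egfl7, summed to 937 and 891 CPM in these libraries and to between 251 and 377 in the others. The 8 fibroblast markers, led by Col3a1, summed to 24459 and 23381 CPM in HFB 6 and CTL 14 and to between 35025 and 53984 in the others. In bulk RNA, fewer cells of a type and less RNA per cell cannot be told apart. The epithelial markers, 9 of 12 with counts and Krt8 the most abundant, summed to between 125 CPM in HFB 1 and 715 CPM in CTL 14, and Cldn3 was at 0 in every library.

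None of the 10 genes was called different between the diets. edgeR called 0 (0%) of 9382 genes at an adjusted p under 0.05, and 220 (2.34%) had an unadjusted p under 0.05. DESeq2 and limma-voom also called 0, with 271 and 613 genes at an unadjusted p under 0.05. Among the 10 genes 9 passed the filter on low counts, and 1 of the 9, Gpx3, had an unadjusted p under 0.05. The values of the diets overlapped for all 9, and over all tested genes 13 (0.139%) did not overlap. Without HFB 6 and CTL 14 the number over all genes was 82, and the values of all 9 still overlapped. The log2 fold changes, HFB minus CTL, were above 0 for 6 genes and below 0 for 3, with a median of 0.12 against a median of 0.00018 over all tested genes.

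**Figure D1:**
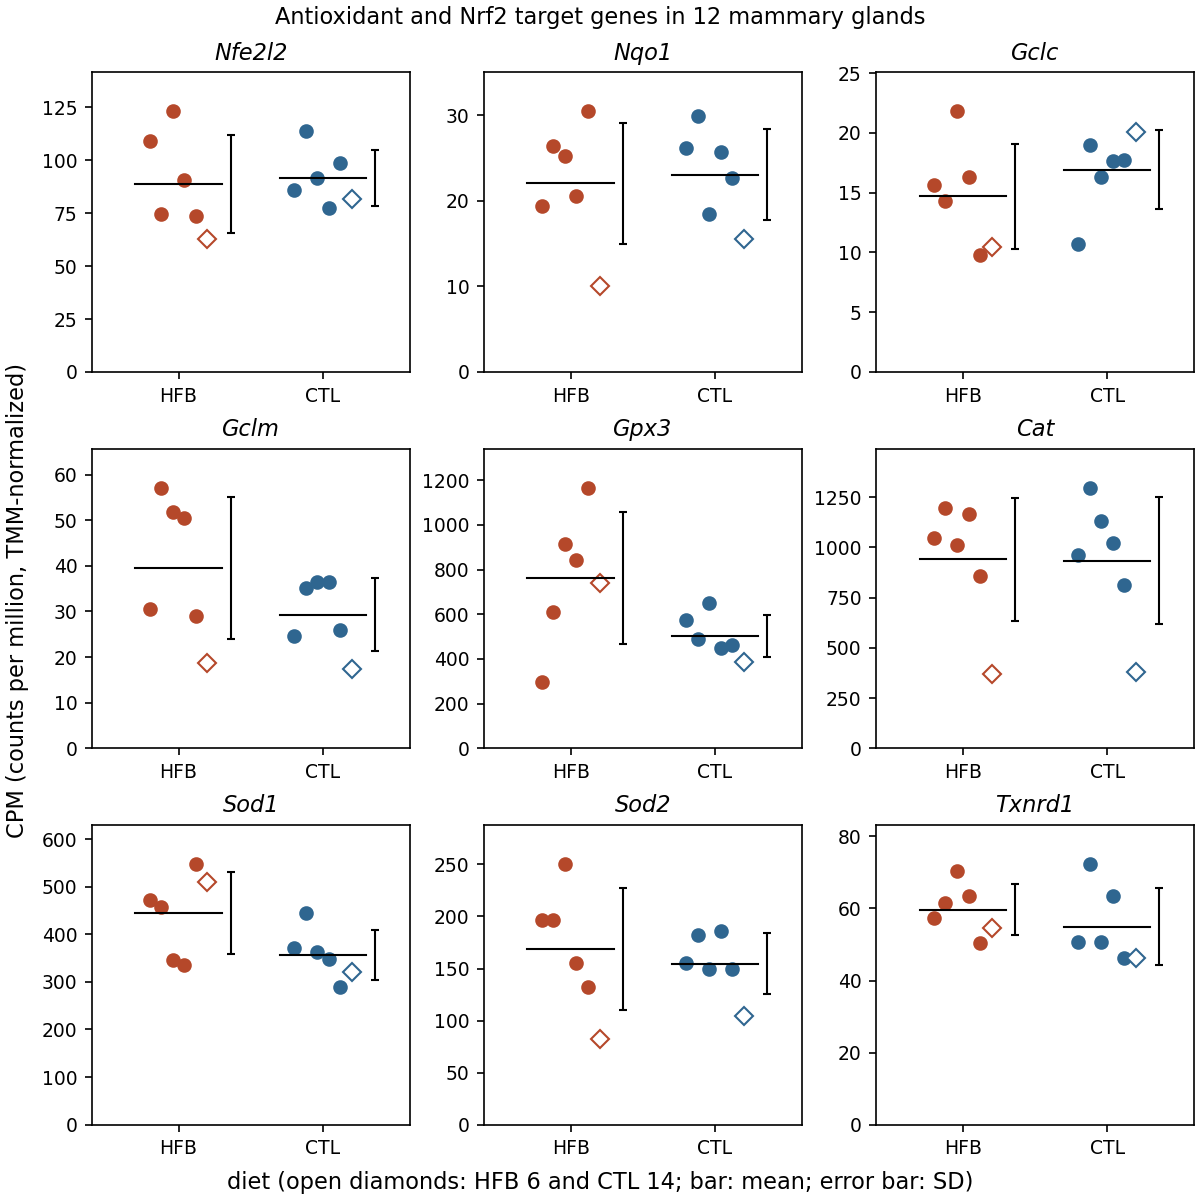
CPM, counts scaled to a common library total (vertical axis from 0), of the 9 genes with counts in each of 12 mammary glands, by diet; horizontal bars are means, error bars are SD, and open diamonds are HFB 6 and CTL 14. The diets overlap in every panel, and both open diamonds are lowest of their diet for Cat, Gclm, Nqo1 and Sod2.

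The regulator itself, Nfe2l2, was measured at a lowest, median and highest level of 62.8, 82.5 and 123 CPM with HFB and 77.5, 88.9 and 114 CPM with CTL. HFB 3 was highest and HFB 6 lowest, and 3 of 6 HFB libraries were above the CTL median. The log2 fold change was -0.046 with a standard error of 0.17 (edgeR, adjusted p = 0.999), and its 95% interval ran from 0.75-fold to 1.24-fold. Without HFB 6 it was 0.030, so the sign was not stable to 1 library. The transcript of its repressor Keap1 had means of 45.6 ± 7.74 CPM (SD, n = 6) with HFB and 45.2 ± 4.71 CPM (SD, n = 6) with CTL. Within a library the ratio of Nfe2l2 to Keap1 CPM ran from 1.39 in HFB 2 to 2.36 in HFB 3, and the HFB minus CTL difference of its log2 value was -0.071 (exact permutation test, two-sided, p = 0.66, adjusted p = 0.66 over 3 ratios).

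Nqo1 encodes a quinone reductase that uses NADH or NADPH and is a classic Nrf2 target. Its lowest, median and highest levels were 10.1, 22.9 and 30.5 CPM with HFB and 15.6, 24.2 and 29.9 CPM with CTL. The ranges overlapped, and HFB 6 and CTL 14 were the lowest libraries of their diets. Between the diets the log2 fold change was -0.075 with a standard error of 0.24 (edgeR, adjusted p = 0.999), and it was 0.070 without HFB 6.

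Gclc and Gclm encode the catalytic and the modifier subunit of glutamate-cysteine ligase, which makes the first bond of glutathione. Gclc had 9.77, 15.0 and 21.8 CPM as the lowest, median and highest levels with HFB and 10.7, 17.7 and 20.1 CPM with CTL. Of the 6 HFB libraries 1, HFB 3, was above the CTL median, and HFB 5 and HFB 6 were lowest. Gclm had 18.6, 40.5 and 57.1 CPM with HFB and 17.3, 30.6 and 36.5 CPM with CTL. HFB 2, HFB 3 and HFB 4 were above every CTL library, whereas HFB 6 and CTL 14 were lowest. The log2 fold changes were -0.20 with a standard error of 0.23 for Gclc and 0.43 with a standard error of 0.28 for Gclm (edgeR, adjusted p = 0.999 for both). For Gclc the value was -0.35 without HFB 3, -0.31 without CTL 7, between -0.13 and -0.11 without any 1 of HFB 5, HFB 6 and CTL 14, -0.065 without HFB 6 and CTL 14, and 0.091 by limma-voom. The unadjusted edgeR p of Gclm was 0.147 over all 12 libraries, 0.0336 without HFB 6, 0.0484 without HFB 6 and CTL 14, and between 0.106 and 0.312 without any other single library. By limma-voom it was 0.0097, and adding 1 surrogate variable or 3 marker scores to the edgeR fit gave 0.00481 and 0.0211, with log2 fold changes of 0.57, 0.54 and 0.46. In every alternative the adjusted p of Gclm was 0.66 or higher.

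The ratio of the subunit transcripts was taken within each library, so that scaling of the library cancels. Gclc to Gclm CPM was between 0.25 and 0.56 with HFB, median 0.38, and between 0.44 and 1.16 with CTL, median 0.51. HFB 2 had the lowest and CTL 14 the highest ratio, and the diets overlapped. The log2 ratio was -1.33 ± 0.43 (SD, n = 6) with HFB and -0.74 ± 0.52 (SD, n = 6) with CTL. The difference of -0.58 did not pass the threshold (two-sided exact permutation test, p = 0.0519, adjusted p = 0.156 over 3 ratios), and 4 of 6 HFB libraries were below the CTL median. Without HFB 6 and CTL 14 the difference was -0.50 (exact permutation test, adjusted p = 0.143).

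Gpx1, the cytosolic glutathione peroxidase, was listed at 0 counts in all 12 libraries. The count of 0 allows up to 0.0961 CPM over all libraries together, for counting error only. Gpx1 is among 2954 genes with this listing, or 17.9% of the table, and lies between Rhoa and Usp4 in GRCr8. The counting rules are not given in the sources used here, so a listing at 0 is not read as absence of the transcript, and the planned ratio of Gpx1 to Gpx3 could not be formed.

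Gpx3 encodes the secreted glutathione peroxidase of plasma, a selenoprotein. Its lowest, median and highest levels were 295.8, 791 and 1167 CPM with HFB and 385, 476 and 651 CPM with CTL. The levels of 4 HFB libraries were above every CTL library, HFB 2 lay inside the CTL range and HFB 1 had the lowest level of all 12. The log2 fold change was 0.59 with a standard error of 0.26, a 95% interval from 1.02-fold to 2.24-fold and an unadjusted p of 0.0419 (edgeR, adjusted p = 0.999). The spread was unequal, at 762 ± 295 CPM (SD, n = 6) with HFB and 502 ± 95.6 CPM (SD, n = 6) with CTL. With limma-voom, which weights libraries by quality, the log2 fold change was 0.32 and the unadjusted p was 0.195. With DESeq2, 1 surrogate variable and 3 marker scores as covariates the log2 fold changes were 0.60, 0.59 and 0.55 and the unadjusted p were 0.0287, 0.0391 and 0.0149 (adjusted p = 1.00, 0.69 and 0.66). The unadjusted edgeR p was 0.0782 without HFB 6 and CTL 14. It was between 0.0522 and 0.114 without any 1 of HFB 3, HFB 4, HFB 5, HFB 6, CTL 8, CTL 10, CTL 11 and CTL 14, and 0.0017 without HFB 1, so that a single library moved it to either side of 0.05.

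Cat encodes catalase, which splits hydrogen peroxide in peroxisomes. The lowest, median and highest levels were 368, 1029 and 1194 CPM with HFB and 377, 993 and 1297 CPM with CTL. HFB 6 and CTL 14 had the lowest levels, and the other libraries lay between 814 and 1297 CPM. The log2 fold change was 0.0039 with a standard error of 0.30 (edgeR, adjusted p = 0.999), and 0.0067 without HFB 6 and CTL 14. It was 0.17 without HFB 6 alone and -0.15 without CTL 14 alone, so the sign was not stable to 1 library. Of the 9 genes Cat had the largest SD of log2 CPM over the 12 libraries, 0.61, which was above that of 75.1% of all tested genes.

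Sod1 encodes the cytosolic copper and zinc superoxide dismutase. Its lowest, median and highest levels were 336, 465 and 548 CPM with HFB and 289, 355 and 445 CPM with CTL. HFB 1, HFB 2, HFB 5 and HFB 6 were above every CTL library, while HFB 3 and HFB 4 lay inside the CTL range. For Sod1 the log2 fold change was 0.32 with a standard error of 0.15 and an unadjusted p of 0.0582 (edgeR, adjusted p = 0.999), with a 95% interval from 0.99-fold to 1.57-fold. By limma-voom it was 0.17 with an unadjusted p of 0.196. DESeq2 gave an unadjusted p of 0.0412, and edgeR gave 0.0288, 0.0252 and 0.0329 without HFB 3, HFB 4 and CTL 8, so for Sod1 too the side of 0.05 depended on the tool and on single libraries.

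Sod2 encodes the manganese enzyme of mitochondria. It had lowest, median and highest levels of 82.6, 175.8 and 250.4 CPM with HFB and 104, 153 and 186 CPM with CTL. HFB 3 was highest, and HFB 6 and CTL 14 were lowest in their diets. The log2 fold change was 0.12 with a standard error of 0.23 (edgeR, adjusted p = 0.999), and it was -0.026 without HFB 3 and 0.26 without HFB 6. The ratio of Sod1 to Sod2 CPM was between 1.38 in HFB 3 and 6.17 in HFB 6, and the HFB minus CTL difference of its log2 value was 0.24 (exact permutation test, two-sided, p = 0.506, adjusted p = 0.66 over 3 ratios). That difference was 0.0071 without HFB 6, 0.12 without HFB 5 and 0.44 without HFB 3.

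Txnrd1 encodes the cytosolic thioredoxin reductase, a selenoprotein that keeps thioredoxin reduced with NADPH. The lowest, median and highest levels were 50.4, 59.4 and 70.5 CPM with HFB and 46.2, 50.7 and 72.3 CPM with CTL. The levels of 5 of 6 HFB libraries were above the CTL median, and the ranges overlapped almost fully. The log2 fold change was 0.12 with a standard error of 0.14 (edgeR, adjusted p = 0.999), and it was 0.063 without HFB 3, 0.074 without CTL 11 and 0.20 without CTL 8. Txnrd1 had the smallest SD of log2 CPM of the 9 genes, 0.22, and 11.1% of all tested genes had a smaller one. In GRCr8 it overlaps another protein-coding gene, and how reads of the overlap were counted is not given in the sources used here.

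**Figure D2:**
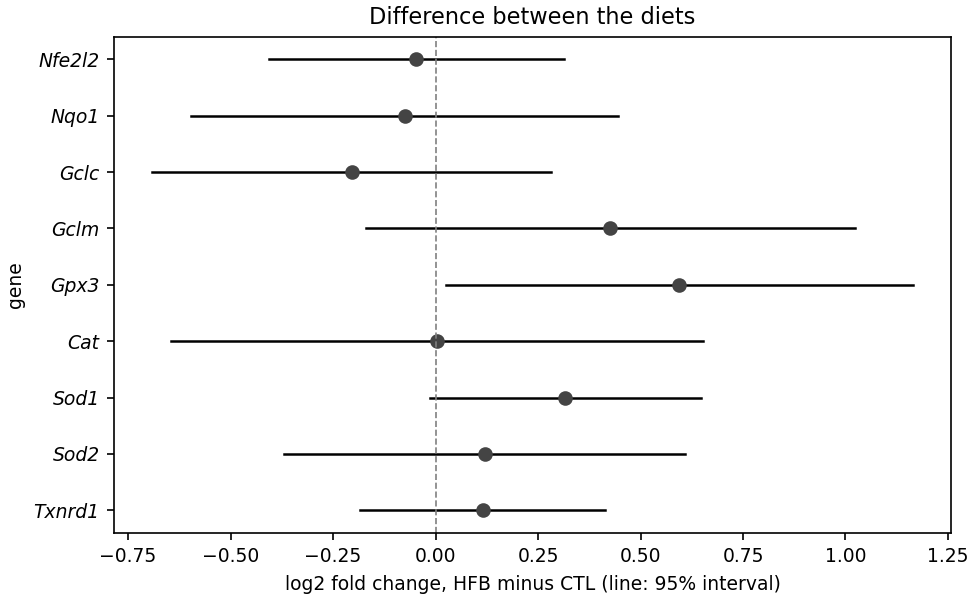
Log2 fold change, HFB minus CTL, from edgeR for each of the 9 tested genes (horizontal axis), with lines for the 95% interval. The interval of Gpx3 starts at 0.025 and those of the other 8 genes include 0.

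Cat, Gclm and Sod2 varied together across the glands, and with the adipocyte markers and others that set HFB 6 and CTL 14 apart. Of 72 relations between the 9 genes and 8 marker scores (mean log2 CPM of each list), 3 passed an adjusted p of 0.05 by Pearson's r and 0 by Spearman's rho. Cat had r = 0.972 with the adipocyte score (permutation p = 0.0004, adjusted p = 0.0288) and rho = 0.797 (permutation p = 0.00267, adjusted p = 0.0641). Gclm had r = 0.769 (permutation p = 0.00105, adjusted p = 0.0378) and rho = 0.706 (permutation p = 0.0127, adjusted p = 0.156). Sod2 had r = 0.841 (permutation p = 0.00161, adjusted p = 0.0386) and rho = 0.538 (permutation p = 0.0734, adjusted p = 0.44). The size of these r and their passing of the threshold rest on HFB 6 and CTL 14, the libraries farthest from the median score. Other scores that set these libraries apart moved with the same genes, and for Cat r was 0.851 with the fibroblast, -0.828 with the endothelial and -0.732 with the lymphoid score (permutation p = 0.0113, 0.00827 and 0.0128, adjusted p = 0.0815, 0.0766 and 0.0817, rho = 0.287, -0.427 and -0.322, permutation p = 0.363, 0.169 and 0.306). Without HFB 6 and CTL 14 these r were -0.221, 0.0193 and 0.216. Nqo1 had r = 0.782 with the adipocyte score (permutation p = 0.00958, adjusted p = 0.0766) and rho = 0.427 (permutation p = 0.17, adjusted p = 0.527), and r was -0.147 without HFB 6 and CTL 14.

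Without HFB 6 and CTL 14, r with the adipocyte score was 0.663 for Cat, 0.487 for Gclm and 0.398 for Sod2, and none passed (permutation test, adjusted p = 0.353, 0.808 and 0.918). With these libraries left out, Gclc had the highest r of the tested antioxidant genes, 0.684, against 0.232 over all libraries. Txnrd1 had 0.449, against 0.436. Within HFB r was 0.993 for Cat, 0.874 for Gclm, 0.887 for Sod2 and 0.611 for Gclc. Within CTL it was 0.960, 0.877, 0.907 and -0.286 in the same order, and each diet had 1 of HFB 6 and CTL 14 in it. The adipocyte score did not differ between the diets beyond the spread of the libraries, at 10.89 ± 0.67 (SD, n = 6) with HFB and 10.99 ± 0.68 (SD, n = 6) with CTL (two-sided exact permutation test, p = 0.582, adjusted p = 0.68 over 8 scores). The part of fat, fibroblast, lymphoid or vessel RNA in the levels of these genes was not tested. Outside the adipocyte score the lowest adjusted p of rho was 0.0522, for Nqo1 with the endothelial and Sod2 with the epithelial score. For Nqo1, r was -0.811 with the endothelial score (permutation p = 0.00348, adjusted p = 0.0626), rho was -0.832 (permutation p = 0.00145, adjusted p = 0.0522), and r was -0.690 without HFB 6 and CTL 14. For Sod2, r was -0.72 with the epithelial score (permutation p = 0.00733, adjusted p = 0.0766), rho was -0.839 (permutation p = 0.00123, adjusted p = 0.0522), and r was -0.652 without HFB 1 and HFB 3. Gclm had r = -0.598 with the epithelial score (permutation p = 0.0417, adjusted p = 0.2) and rho = -0.755 (permutation p = 0.0059, adjusted p = 0.106), and its r was -0.754 without HFB 1 and HFB 3.

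**Figure D3:**
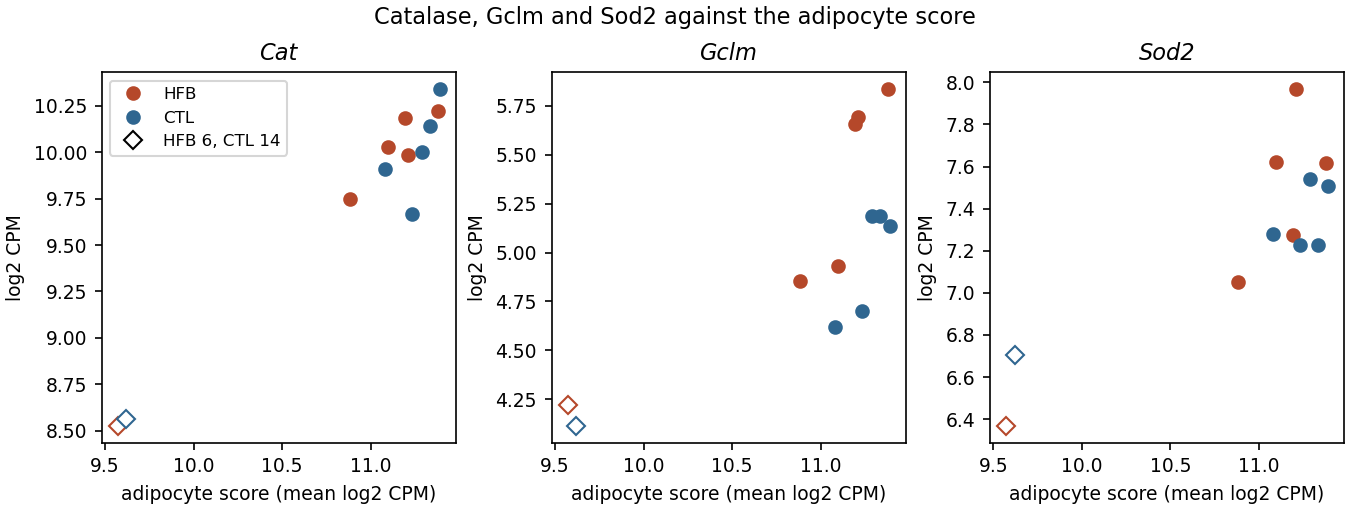
Log2 CPM of Cat, Gclm and Sod2 (vertical axes) against the adipocyte score, the mean log2 CPM of 9 marker genes (horizontal axis), for 12 libraries coloured by diet, with open diamonds for HFB 6 and CTL 14. These libraries sit at scores of 9.57 and 9.62, and the other 10 lie between 10.88 and 11.39.

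Gpx3 and Sod1 did not share this pattern over the 12 libraries, with r = 0.041 (permutation p = 0.898, rho = -0.112, permutation p = 0.733) and r = -0.143 (permutation p = 0.651, rho = -0.168, permutation p = 0.606) with the adipocyte score, and without HFB 6 and CTL 14 r was -0.342 and -0.36. Within HFB r was -0.114 for Gpx3 and -0.474 for Sod1, whereas within CTL it was 0.632 and 0.366. For Gpx3 the highest r among the 8 scores was 0.544, with the skeletal muscle score (permutation p = 0.069, adjusted p = 0.24, rho = 0.58, permutation p = 0.0525, adjusted p = 0.375), and it was 0.294 without HFB 1 and CTL 10. With the erythroid score r was 0.523 (permutation p = 0.0815, adjusted p = 0.255), rho was 0.699 (permutation p = 0.0149, adjusted p = 0.156), and r was 0.858 without HFB 2 and CTL 9. The 8 of 11 erythroid markers in the table, of which Hbb is the most abundant, summed to between 8222 CPM in CTL 10 and 87541 CPM in HFB 2. The HFB minus CTL difference of the erythroid score was 0.78 (two-sided exact permutation test, p = 0.186, adjusted p = 0.68 over 8 scores). It was 0.44 without HFB 2 and 1.12 without CTL 9, and the part of blood RNA in the level of Gpx3 was not tested.

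**Figure D4:**
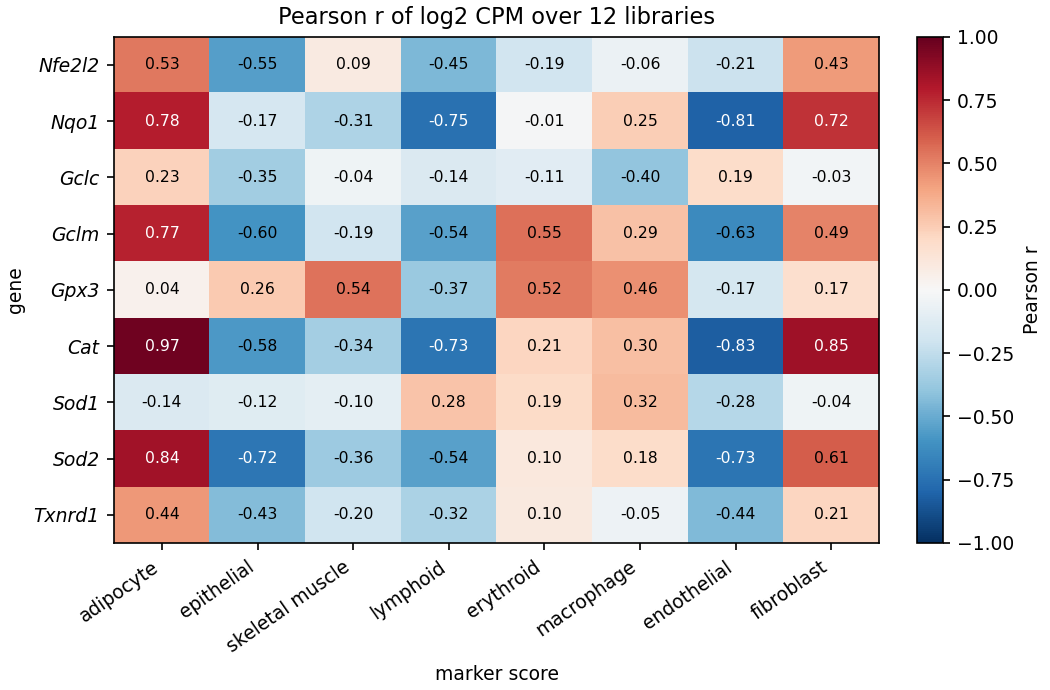
Pearson r over 12 libraries between log2 CPM of each of the 9 tested genes (rows) and each of 8 marker scores (columns), from -1 (blue) to 1 (red). Cat, Sod2, Nqo1 and Gclm are red with the adipocyte score and blue with the endothelial score, and these values include HFB 6 and CTL 14.

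Among the 36 pairs of the 9 genes, 3 passed by r and 0 by rho. Cat and Gclm had r = 0.81 (permutation p = 0.00056, adjusted p = 0.0202) and rho = 0.776 (permutation p = 0.00454, adjusted p = 0.0891). Gclm and Sod2 had r = 0.791 (permutation p = 0.00174, adjusted p = 0.0245) and rho = 0.664 (permutation p = 0.0222, adjusted p = 0.156). Cat and Sod2 had r = 0.834 (permutation p = 0.00204, adjusted p = 0.0245) and rho = 0.594 (permutation p = 0.0457, adjusted p = 0.206). Without HFB 6 and CTL 14 these r were 0.615, 0.562 and 0.363 and none passed, so their size and their passing of the threshold also rest on these libraries. Within HFB these r were 0.859, 0.805 and 0.849, and within CTL 0.909, 0.869 and 0.916. Txnrd1 did not pass with Cat, Gclm or Sod2 (r = 0.537, 0.697 and 0.628, permutation test, adjusted p = 0.21, 0.0696 and 0.0957). For Cat and Gclm its r was 0.701 and 0.681 without HFB 6 and CTL 14, and for Sod2 0.715 without HFB 3 and HFB 6. Gclc and Sod1 had rho = -0.769 (permutation p = 0.00495, adjusted p = 0.0891) and r = -0.651, which was -0.297 without HFB 5 and HFB 6.

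The genes whose log2 CPM followed a member most closely over the 12 libraries, out of 9382 tested, are given for the 4 members with the largest SD. For Cat they were Clmp, Apmap and Sdhaf2 (r = 0.987, 0.986 and 0.979). For Gpx3 they were Timp2, Ctdsp1 and Shc2 (r = 0.916, 0.895 and 0.887). For Gclm they were Ptgr2, Ypel5 and C10h17orf58 (r = 0.914, 0.914 and 0.912), and for Nqo1 they were Ankrd24, Hsbp1 and Sec13 (r = 0.954, 0.946 and 0.940). These r are descriptions of 12 libraries that include HFB 6 and CTL 14, taken as the highest of many.

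Other genes of the pathway showed no call either. Of 9 genes that control Nrf2, such as Keap1, Cul3 and the small Maf genes, 0 were called and 0 had an unadjusted p under 0.05 by edgeR, and their median log2 fold change was 0.0075. Of 20 other Nrf2 targets, 19 were in the table and 17 were tested, with 0 calls, 0 at an unadjusted p under 0.05 and a median of 0.18. Of 23 other antioxidant enzymes 22 were tested, with 0 calls, 2 at an unadjusted p under 0.05, both higher with HFB, and a median of 0.17. Over the 3 lists, 2 of 48 genes thus had an unadjusted p under 0.05, against 2.34% of all tested genes, and this count became 4 by DESeq2, 6 by limma-voom, 10 with a surrogate variable, 11 with scores as covariates, 5 without HFB 4 and 6 without CTL 8. Over all tested genes the count of 220 became 271, 613, 644, 675, 389 and 271 in the same order. Taken over the 48 tested genes, 38 were above 0 and 10 below, against 4694 and 4688 of all tested genes. Genes that vary together across glands are not independent of each other, and the lists were written with earlier results of these data known. No conclusion is therefore drawn from these counts.

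The pair with an unadjusted p under 0.05 consisted of Msrb1, a methionine sulfoxide reductase, and Gpx4, the peroxidase of membrane lipid peroxides. Msrb1 had 331 ± 56.3 CPM (SD, n = 6) with HFB and 248 ± 44.6 CPM (SD, n = 6) with CTL. Its log2 fold change was 0.41 with an unadjusted p of 0.0164 (edgeR, adjusted p = 0.999). Gpx4 had 631 ± 173 CPM (SD, n = 6) with HFB and 459 ± 66.2 CPM (SD, n = 6) with CTL. Its log2 fold change was 0.45 with an unadjusted p of 0.0219 (edgeR, adjusted p = 0.999). For Gpx4 it was 0.31 without HFB 5, with an unadjusted p of 0.0561, and 0.29 by limma-voom, with an unadjusted p of 0.0396. Selenop, the plasma carrier of selenium, had a log2 fold change of 0.18 and an unadjusted p of 0.504 (edgeR, adjusted p = 0.999). It was 0.024 without CTL 14, 0.28 without HFB 6, and 0.37 and 0.31 with 1 surrogate variable and with 3 marker scores as covariates (unadjusted p = 0.0266 and 0.0293, adjusted p = 0.69 and 0.66).

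Of the NADPH-linked targets, Taldo1 and Tkt of the pentose phosphate pathway had log2 fold changes of 0.45 and 0.51 with unadjusted p of 0.0551 and 0.0923 (edgeR, adjusted p = 0.999 for both). Other settings moved these p to either side of 0.05. For Taldo1 they ran from 0.00848 by limma-voom to 0.14 without HFB 1, and for Tkt from 0.0138 by limma-voom to 0.24 without HFB 1, where its log2 fold change was 0.34. Me1, malic enzyme, ran from 152 CPM in HFB 6 to 2828 CPM in HFB 1, and its log2 fold change of 1.02 had a standard error of 0.68 (edgeR, adjusted p = 0.999). It was 0.50 without HFB 1, and 1.41 by limma-voom with an unadjusted p of 0.0233. Prdx5 and Prdx2, which are peroxiredoxins, had log2 fold changes of 0.24 and 0.23 (edgeR, unadjusted p = 0.0837 and 0.0882, adjusted p = 0.999 for both). The unadjusted p of Prdx5 was 0.035 without HFB 4 and 0.22 by limma-voom, and that of Prdx2 was 0.044 by DESeq2, 0.0412 with the scores as covariates and 0.0464 without CTL 8. The stress-induced targets Hmox1 and Srxn1 had log2 fold changes of 0.028 and -0.12, and Sod3, the extracellular superoxide dismutase, had 0.049 (edgeR, adjusted p = 0.999 for each). These signs were not stable to 1 library, with -0.070 for Hmox1 without HFB 1, 0.10 for Srxn1 without CTL 10 and -0.077 for Sod3 without CTL 14.

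**Figure D5:**
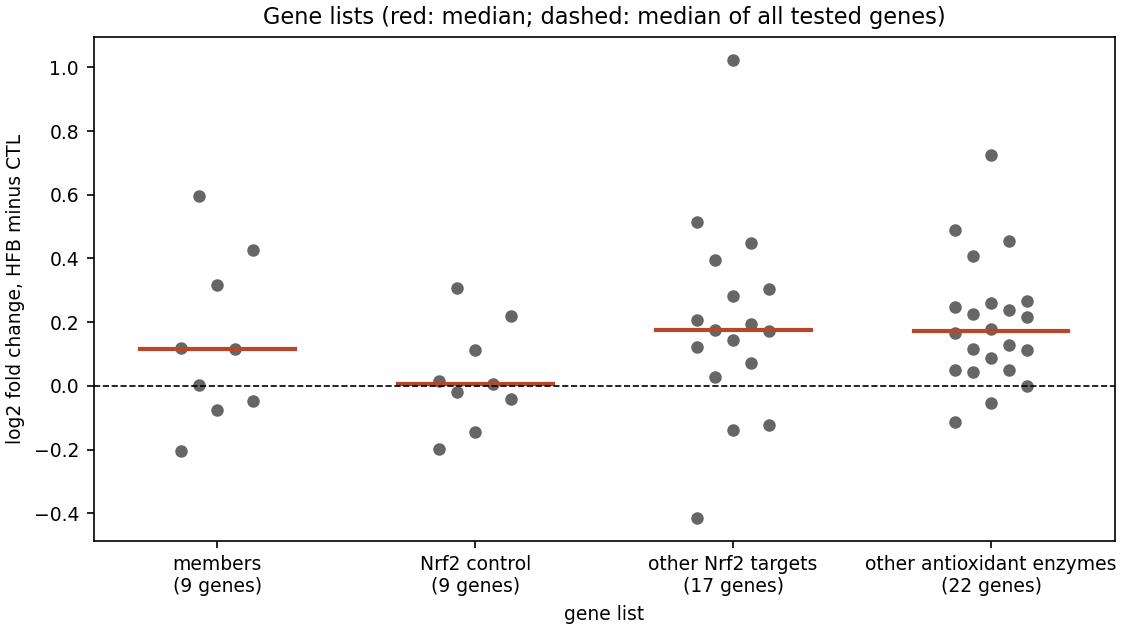
Log2 fold change, HFB minus CTL, of each tested gene (points) in the 10 named genes and 3 other lists, with the median of each list in red and the median of all 9382 tested genes dashed. Medians are 0.12, 0.0075, 0.18 and 0.17 from left to right, and Me1 is the highest point at 1.02.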

How the data were processed

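Gene counts of 12 mammary glands at PND21 were analysed. The authors deposited raw counts per Entrez gene, without normalization. Their processing notes list bcl2fastq, CASAVA 1.8, TopHat, DESeq and the build rn4. The role of each, the counting program, the annotation and the use of strand are not given in the sources used here. RefSeq names in GRCr8 were matched to 16351 of 16511 identifiers, gene positions in that assembly served only to find neighbouring and overlapping genes, and promoter windows came from RefSeq in the same assembly.

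The test was the quasi-likelihood F test of edgeR 4.0.16 in R 4.3.3 (TMM, filterByExpr, Benjamini-Hochberg over 9382 genes, threshold 0.05). The alternatives were DESeq2 1.42.0, limma 3.58.1 (voom with quality weights), sva 3.50.0 (1 surrogate variable), RLE size factors, no filter, a minimum of 10 counts, 3 marker scores as covariates, a prior count of 0.5 and leaving out each library. Scores and ratios used log2 CPM (prior count 2) and exact permutation over 924 assignments, where 0.0022 is the smallest p. Correlations used 100000 resamples in Python 3.11.15. The fits, other than that with scores as covariates, were tested on simulated data. Limits from 3 counts cover counting error only. The intervals of the log2 fold changes come from the edgeR fit and also take in the spread between libraries.

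CPM were computed with TMM factors from all genes, whereas the edgeR fit took its factors from the filtered genes. CPM on the latter factors were first tried after the data had been seen, when the number of genes that do not overlap between the diets was found to differ from an earlier count made on these data. The first computation was kept, and the other is given as an alternative. Leaving out HFB 6 and CTL 14 together in the comparisons of the diets was also chosen after seeing the data, as was RLE scaling for that number. For correlations, leaving out the 2 libraries farthest from the median was part of the design.

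The genes and lists were chosen with earlier results of these data known. Of the 3 pathway lists, the rule names the 5 tested genes with the highest mean CPM, the 5 with the smallest p, any gene called, and Keap1, Hmox1, Srxn1 and Gpx4. For 4 of the 10 genes, those with the largest SD of log2 CPM, it names the 3 genes with the highest r. Of 4 planned ratios 3 could be formed and were adjusted together.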

Additional observations from a re-analysis of the deposited data

Results flagged for a closer look

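In each diet, the gap between the highest or lowest library and its nearest neighbour was set against the range of the 6 libraries for 42 groups of values. In 8 of them the gap exceeded Dixon's critical value for 6 samples, and chance gives about 1 in 20 groups, or 2.1. No CPM value of the 9 tested antioxidant genes and none of the 3 ratios was among the 8, where scores and ratios were taken as log2 values and genes as CPM. With the genes as log2 CPM, tried after seeing the data, 2 of their 18 groups exceeded it, Cat in HFB, where HFB 6 was lowest, and Gclc in CTL, where CTL 7 was lowest. The adipocyte score was 9.57 in HFB 6, with 10.88 as the next lowest of its diet, and 9.62 in CTL 14, with 11.08 as the next. CTL 14 also had a lymphoid score of 6.56, against 2.29 in the next CTL library, and a fibroblast score of 9.40, against 10.32. The erythroid score of CTL 9 was 9.16, against 7.28. The macrophage score of HFB 5 was 6.38, against 6.08. Total counts were 2320267 in HFB 1, against 2629159, and 2944680 in CTL 7, against 2570080.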

How the results depend on the processing

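No paired analysis was possible because HFB and CTL libraries carry different numbers. No setting gave a call among the 9 tested antioxidant genes or elsewhere. Against 220 genes at an unadjusted p under 0.05, limma-voom gave 613, 1 surrogate variable 644, 3 scores as covariates 675, leaving out HFB 6 and CTL 14 together 431, and leaving out single libraries 135 to 587. Against 11 genes with a fold above 2 in addition, these were 113 without the filter, 4 with at least 10 counts, 64 by limma-voom, 30 without both libraries and 8 to 128 without single ones (128 without CTL 14). Among the named 9 genes the count of 1 became 2 by DESeq2, 2 with a surrogate variable, 2 with scores, and 0 to 1 without single libraries (0 without HFB 5, CTL 10, CTL 11 or CTL 14), and the gene counted was not always Gpx3. For the 3 pathway lists 2 became 4, 6, 10 and 11 by DESeq2, limma-voom, surrogate variable and scores, and 2 to 6 without single libraries. Genes that do not overlap between the diets numbered 13, 12 with RLE factors, 10 with TMM factors of the filtered genes and 82 without HFB 6 and CTL 14, and in each case 0 of the 9.

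The sign of a difference turned in the following cases. By limma-voom the log2 fold change was 0.041 for Nfe2l2, 0.091 for Gclc, -0.035 for Sod3 and -0.057 for Hmox1. Without HFB 6 and CTL 14 it was 0.0033 for Nfe2l2 and -0.022 for Hmox1. With 1 surrogate variable it was 0.014 for Nqo1 and 0.094 for Srxn1, and with scores 0.049 and 0.16. With at least 10 counts it was -0.0082 for Cat and -0.0079 for Keap1. Without single libraries the ranges were -0.16 to 0.030 for Nfe2l2, -0.19 to 0.070 for Nqo1, -0.15 to 0.17 for Cat, -0.026 to 0.26 for Sod2, -0.077 to 0.15 for Sod3, -0.039 to 0.082 for Keap1, -0.070 to 0.13 for Hmox1 and -0.50 to 0.10 for Srxn1. They were -0.38 to 0.16 for the adipocyte, -0.12 to 0.86 for the skeletal muscle and -0.31 to 0.041 for the endothelial score difference, and -0.14 to 0.022 for Nfe2l2 to Keap1. Without the 2 farthest libraries r with the adipocyte score was 0.4874 (Gclm), 0.6634 (Cat) and 0.3982 (Sod2), and between pairs 0.6147 (Cat, Gclm), 0.5619 (Sod2, Gclm) and 0.3627 (Sod2, Cat), none past the threshold. The cause was not tested. Gclm, Gpx3, Sod1 and Txnrd1 were above 0 in all 20 alternatives. The alternatives reuse the same libraries, so a kept sign is not independent support. For Txnrd1 the lowest unadjusted p among them was 0.166 (edgeR, without CTL 8).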
